A study of Mus musculus with 6 samples.

Results

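The cartilage fibril collagens were described here by 7 genes: Col2a1, which encodes the chain of collagen II, Col9a1, Col9a2 and Col9a3 for the chains of collagen IX, Col11a1 and Col11a2 for chains of collagen XI, and Col27a1 for collagen XXVII. All non-control array probes whose gene name in the files is one of these symbols were taken, which gave 8 probes (2 for Col9a1 and 1 for each other gene) out of 55681 on the array. RNA came from mouse embryos at stage E11.5, strain C57BL/6, that carry EGFP knocked into the Sox9 locus, so the fluorescence follows the activity of that locus. Mesenchymal cells of the forelimb autopod, the hand plate, gave 3 samples of Sox9-EGFP positive cells and 3 of Sox9-EGFP negative cells by flow sorting; a sample was drawn from about 10 autopods and was read on a separate 1-colour array. All samples of both groups carry the reporter, and no embryo without it was measured. The labels name no litter, sort or gate, so the p-values measure the spread between these samples, which may be technical.

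Collagen II is the main fibril-forming collagen of cartilage. Its fibrils contain collagen XI, which is built from the Col11a1 and Col11a2 chains and a chain made from Col2a1, while collagen IX sits on the fibril surface and is assembled from 1 chain of each of its 3 genes. Collagen XXVII is a separate fibril-forming collagen of developing cartilage. SOX9, with its partners SOX5 and SOX6, is known to activate Col2a1 and several of the other genes in chondrocytes, and at the stage studied here the digit primordia are condensing and hold little cartilage matrix.

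Each probe is a 60-base oligonucleotide, and its last 30 bases (positions 31 to 60, 5′ to 3′, from the deposited files) are shown because 2 probes of the same gene gave different results. Capitals mark the polyadenylation hexamer AATAAA, searched together with ATTAAA on the printed strand.
Col2a1: acacctctgtattttttaaaacatcaattg
Col9a1, downstream probe: tacattcAATAAAattggtgcttaaaatct
Col9a1, upstream probe: aacctgtcatgagctgccaatcagaatcac
Col9a2: ccctattcttattctctggacttattttta
Col9a3: catatttcctactgaaatacgagagcactc
Col11a1: ttatcAATAAAtcaagtcttgtctacctgg
Col11a2: cccagcagatattgggggcaggtgctgcaa
Col27a1: gcttttacaacattgcacagctgtgtagaa
The hexamer occurs in the Col11a1 probe and in the downstream Col9a1 probe and in none of the other 6. Labelling was primed with oligo-dT, per the labels' protocols, so cRNA starts at the 3′ end of a polyadenylated transcript. In the mm9 build given by the files, the Col2a1 probe lies on the minus strand of chromosome 15 (chr15:97806071-97806130). The Col9a2 probe is at chr4:120727698-120727757 and the Col27a1 probe at chr4:62995485-62995544. The other positions are chr2:180356123-180356182 for Col9a3, chr3:113923185-113923244 for Col11a1 and chr17:34203113-34203172 for Col11a2. Which exon or untranslated region each probe matches was not analysed here.

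Of the 8 probes, 7 were well above background throughout at least 1 of the groups (3 of 3 arrays) and were tested among 26473 probes. Of these 7 probes, 6 were higher in the Sox9-EGFP positive cells and 0 lower at an adjusted p under 0.05 (limma), while 7.96% of all probes tested were higher by the same call, 13.7% lower and 21.6% called in either direction. The groups did not overlap for these 6 probes, which also held, in the higher direction, for 15% of all probes. The probes of 5 genes (Col2a1, Col9a1, Col9a2, Col9a3 and Col11a2) were at least 4-fold higher by the fitted value, against 1.25% of all probes. That count was 3 under normexp background correction plus quantile scaling and 3 on the authors' deposited values, where Col9a3 and Col11a2 were under 2-fold. Col9a3 passed the filter on background through the positive arrays alone, so its entry into these counts depended on a high level there. Where probes had to be above background on all 6 arrays, Col9a3 was not tested. In that setting 5 member probes were called and 4 were at least 4-fold higher. Col11a1 was higher by less than 2-fold, and Col27a1 did not pass the test. The median log2 difference of the 7 probes was 2.63, or 2.39 with Col9a3 at the bound set out below, and that of all probes was −0.10. A higher level in a sorted sample can come from more cells that express a gene or from more RNA per cell, which cannot be told apart in these samples.

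Each level below is a log2 signal minus the 75th percentile of its own array, and levels of different probes are not set against each other. Positive replicate 1 was the dimmest array: its percentile was 126 (385 to 478 elsewhere), with 24743 spots well above background (29800 to 35277 elsewhere). The 6 arrays lay on 3 slides, each with 1 array of either group, so every difference could also be taken within slides. Sox9 itself, whose reporter the cells were sorted on, was 4.37 ± 0.20 higher on the log2 scale in the positive cells (SE, n = 3 per group). The sorted cells carried limb mesenchyme markers (6 of 6 measured, with 3 higher and 2 lower in positive cells). Prrx2 and Twist1 were lower, with log2 differences of −1.93 ± 0.12 and −1.92 ± 0.14. Tbx5 and Pdgfra were higher, with 1.02 ± 0.17 and 0.79 ± 0.13 (SE, n = 3 per group). The summed signal of the list was 100.4 to 114 times the 75th percentile on positive and 147.5 to 159.9 times on negative arrays. Without negative replicate 1 or negative replicate 3, 3 instead of 5 were called. Each summed signal here takes the brightest probe of every listed gene on the array, measured or not. Of the 8 blood markers 4 were measured and none was called. The summed signal of this list was 1.09 to 4.99 times the 75th percentile on positive arrays and 1.72 to 43.2 times on negative ones. With slide as a block Hba-a1 was called lower in positive cells (−2.44, adjusted p = 0.0368, limma). Negative replicate 2 stood apart, with log2 levels of 2.67 for Hba-a1 and 4.72 for Hbb-y, against −0.41 and 0.90 on negative replicate 1. Of the 6 endothelium markers 2 were measured and none was called (2.79 to 7.97 and 1.91 to 4.85), and Tek, Tie1 and Emcn were not above background on any array. Of the 6 ectoderm markers 4 were measured and 2, Krt18 and Krt8, were higher in positive cells (9.02 to 10.65 and 1.77 to 2.16), while Cdh1 was not above background on any array. The other measured ectoderm markers, Epcam and Krt14, had log2 differences of −0.43 ± 0.23 and −0.03 ± 0.28 and were not called. Of the 6 muscle precursor markers 4 were measured and 2, Lbx1 and Pax3, were lower in positive cells (0.139 to 0.258 and 0.597 to 1.31). With slide as a block all 4 were called lower, Myod1 with an adjusted p of 0.0268 and Met with 0.0450 (limma), and 4 were also called under quantile scaling with or without normexp. All 4 passed the filter on background through the negative arrays alone, so their entry depended on a high level there. Pax3 and Myod1 were not well above background on any positive array. With probes above background on all 6 arrays, 0 muscle precursor markers were called. Of the 5 chondrocyte markers, which include Col2a1 and Sox9, 4 were measured and 3 were higher in positive cells (146 to 209.3 and 4.17 to 6.12, sums that include Col2a1). The called markers were Col2a1, Sox9 and Cnmd, and Cnmd passed the filter on background through the positive arrays alone. With probes above background on all 6 arrays, 2 chondrocyte markers were called. Acan had 0.58 ± 0.45 and was not called, and Matn1 was not above background on any array. The part of other cell types in the differences of the collagens was not tested.

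Col2a1 rose 36.5-fold in the Sox9-EGFP positive cells. Its probe read 7.63, 7.11 and 7.30 on positive replicates 1, 2 and 3, and 2.45, 2.15 and 1.87 on negative replicates 1, 2 and 3. All 3 positive arrays lay at least 4.66 log2 units above every negative array, and the groups did not overlap. The log2 difference was 5.19 ± 0.21 (SE, n = 3 per group; adjusted p = 0.000408, limma). The negative cells were not without Col2a1 RNA: the mean spot signal was still 57.1 to 82.6 times the local background on their arrays, against 849 to 2636 times on the positive ones. No spot was saturated on any array.

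Each of the 3 collagen IX genes rose on 1 probe. Col9a2, which encodes the alpha 2 chain, read 3.40, 3.62 and 4.08 on the positive arrays and −2.55, −2.66 and −3.71 on the negative arrays. The lowest positive array was 5.96 above the highest negative array, the widest gap of the 7 tested probes. The difference, 6.67 ± 0.35 on the log2 scale (SE; adjusted p = 0.000553, limma; n = 3 per group), corresponds to 102-fold, with 79.9-fold and 131-fold at 1 SE to either side. This size holds for the processed signal alone: the log2 difference was 5.48 under normexp plus quantile scaling and 5.37 in the authors' deposited table, and it was called in both. In the negative cells Col9a2 was close to the limit of measurement, with a mean signal of 3.1 to 4.82 times the local background, although its spot was called well above background on all 3 arrays.

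Col9a1, the alpha 1 chain, was already bright in the negative cells. Its downstream probe (chr1:24259125-24259184) read 3.07, 2.94 and 2.97 on the negative arrays, with a mean signal of 101 to 135 times the local background. On the positive arrays it read 5.39, 5.63 and 5.86, which again did not overlap with the negative group. The log2 difference was 2.63 ± 0.16 (SE, n = 3 per group; adjusted p = 0.000646, limma), or 6.21-fold. The negative arrays differed from each other by less than the positive ones, with an SD of 0.07 against 0.23.

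The upstream Col9a1 probe (chr1:24201545-24201604) starts 57580 bases before the downstream one on the same strand and gave a different result. It read −4.76, −5.14 and −4.34 on the positive arrays and −4.89, −4.49 and −5.15 on the negative arrays. These groups overlapped, and the probe was well above background on 1 of 6 arrays, positive replicate 3. It therefore entered no test in the comparison. With no filter on background its log2 difference was 0.10 ± 0.30 (SE, n = 3 per group; adjusted p = 0.867, limma). Col9a1 is known to be transcribed from alternative start sites that give a long and a short chain, and the RefSeq table of promoters (GRCm38.p6) holds 2 entries for the gene. Which transcripts each probe detects was not tested.

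Col9a3, the alpha 3 chain, was detected on the positive arrays alone. It read −1.61, −2.94 and −2.09 there, where its mean signal was 3.26 to 6.19 times the local background. On the negative arrays it read −6.50, −6.35 and −6.63 and was not well above background on any of them. The difference is therefore given as a bound by a set rule: Col9a3 was at least 5.26-fold higher in the positive cells. This bound holds for the processed signal scaled to the 75th percentile. "At least" sets each negative array at its lowest signal well above background or at the probe's own value, whichever was higher. That level is not a strict limit of detection. The upstream Col9a1 probe read −4.49 on negative replicate 2, above that array's lowest such signal of −4.64, yet was not well above background. The bound is therefore no strict minimum, and this holds for every other fold given below with these words. The fitted log2 difference was 4.28 ± 0.34 (adjusted p = 0.00132, limma), with 0.95 under normexp background correction plus quantile scaling and 0.96 in the authors' deposited table, both still called. Col9a3 was not tested where probes had to be above background on all 6 arrays.

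The plot of the 8 probes by array shows the separation of the groups probe by probe, and heights are not compared between probes.

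**Figure D1:**
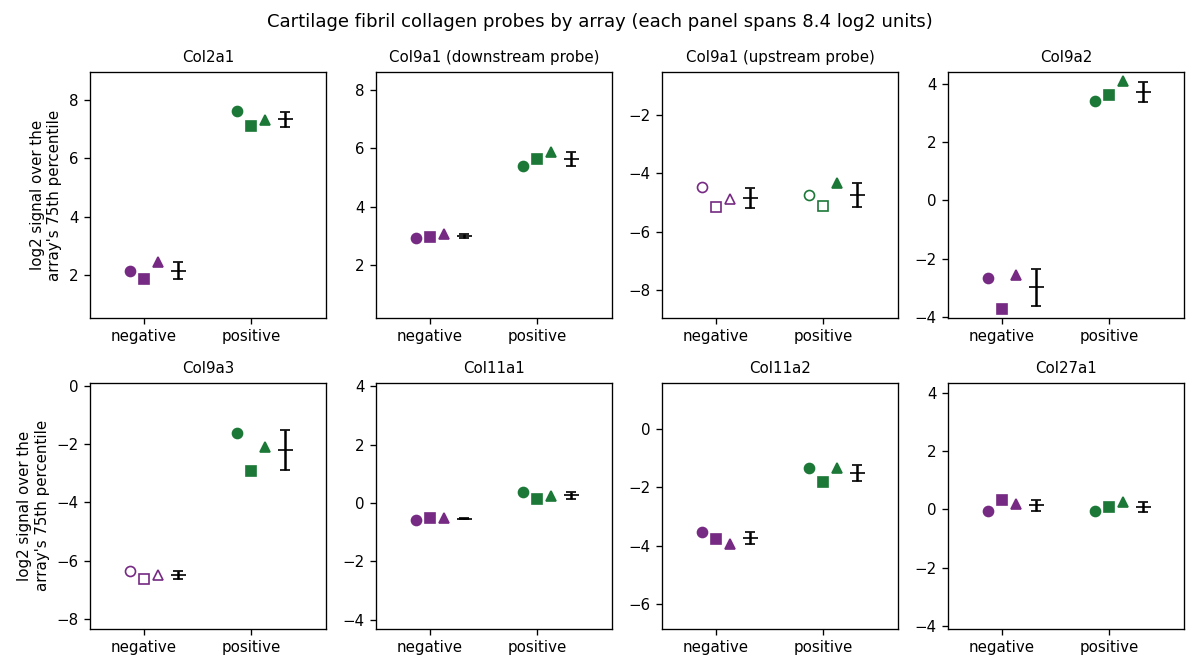
Log2 signal over the 75th percentile of the array for each probe, by group (x axis); circles, squares and triangles are arrays of slides 1, 2 and 3, open symbols are spots not well above background, and black bars are the mean with the SD (n = 3). Col2a1, Col9a2, Col9a3 and the downstream Col9a1 probe are separated by 2.32 log2 units or more between the groups, while Col27a1 and the upstream Col9a1 probe overlap. Col9a3 was not well above background on any negative array, so its gap of 3.41 rests on values below that limit.

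Both collagen XI genes rose. Col11a2, the alpha 2 chain, read −1.35, −1.81 and −1.32 on the positive arrays and −3.94, −3.52 and −3.77 on the negative arrays. The groups were 1.71 log2 units apart at their nearest. The log2 difference was 2.25 ± 0.19 (SE, n = 3 per group; adjusted p = 0.00172, limma), or 4.75-fold. It was a dim probe, at 2.28 to 2.39 times the local background on negative and 3.03 to 7.84 times on positive arrays. Its difference was 0.95 under normexp plus quantile scaling and 0.93 in the authors' deposited table, and it was called in both.

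Col11a1, the alpha 1 chain of collagen XI, which also joins collagen V chains in other tissues, read 0.37, 0.15 and 0.26 on the positive arrays. It read −0.51, −0.57 and −0.51 on the negative arrays, whose SD was 0.03. The groups did not overlap, with a gap of 0.66. The log2 difference was 0.79 ± 0.12 (SE, n = 3 per group; adjusted p = 0.00947, limma), or 1.73-fold. Its call was lost with no filter on background (adjusted p = 0.1002, limma) and with the replicate block (adjusted p = 0.0698, limma), and leaving out an array gave at most 0.0495.

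Col27a1 did not pass the test. Its probe read −0.07, 0.07 and 0.26 on the positive arrays and 0.18, −0.05 and 0.31 on the negative arrays. The 3 positive values fell within or just below the range of the negative ones. The log2 difference was −0.05 ± 0.16 (SE, n = 3 per group; adjusted p = 0.840, limma). The probe was measured on all 6 arrays at 5.70 to 21.5 times the local background. Its sign was the other one without positive replicate 1 (0.02) and without negative replicate 3 (0.03).

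Within the slides, the 6 called probes were higher in the positive array in all 3 comparisons, which follows for groups that do not overlap. Col2a1 differed by 4.85 to 5.47, Col9a2 by 6.06 to 7.33 and Col9a3 by 3.69 to 4.74. The downstream Col9a1 probe differed by 2.46 to 2.79, Col11a2 by 1.96 to 2.62 and Col11a1 by 0.66 to 0.94. Col27a1 differed by −0.24 to 0.09, with both signs. With slide as a block the adjusted p was 0.00263 for Col2a1, 0.00307 for Col9a2, 0.00423 for Col9a1, 0.00423 for Col9a3, 0.00588 for Col11a2 and 0.0212 for Col11a1 (limma).

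**Figure D2:**
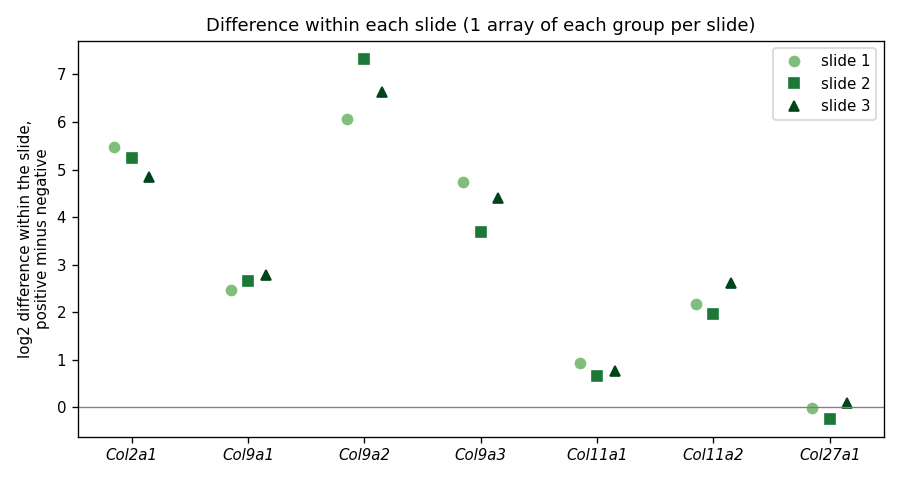
Log2 difference between the positive and the negative array of each slide (y axis) for the tested probe of each gene (x axis), with 1 symbol per slide. The 3 slides give 6.06 to 7.33 for Col9a2 and −0.24 to 0.09 for Col27a1.

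Because the chains of 1 molecule are measured on the same array, the log2 ratio of 2 genes was taken within each array and compared between the groups, in 6 pairs. Ratios between probes have no absolute meaning, so only their difference between groups is given. The exact two-sided permutation test of 3 against 3 arrays cannot give less than 0.1, and all 6 pairs reached 0.1 (0.1 after Benjamini-Hochberg adjustment over 6 pairs), so no pair passes 0.05 by design. In collagen IX, the ratio of Col9a1 to Col9a2 differed by −4.04 ± 0.36 on the log2 scale (positive minus negative; SE, n = 3 per group), with no overlap between groups. Its size depended on the scaling: it was −2.57 under normexp plus quantile scaling and −2.5 in the authors' deposited table. The ratio of Col9a2 to Col9a3 was 2.39 ± 0.56 higher, but Col9a3 has only a bound in the negative cells. With Col9a3 at that bound this difference was 4.28, and that of Col9a1 to Col9a3 was 0.24 instead of −1.65 ± 0.46. The order of Col9a1 and Col9a3 was thus not settled by these arrays.

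In collagen XI, the ratio of Col2a1 to Col11a1 was 4.398 ± 0.19 higher in the positive cells and that of Col2a1 to Col11a2 was 2.94 ± 0.27 higher (SE, n = 3 per group). The ratio of Col11a1 to Col11a2 had a difference of −1.46 ± 0.18. None of these 3 ratios overlapped between the groups. That last difference was −0.29 under normexp plus quantile scaling and −0.31 in the authors' deposited table. For Col2a1 to Col11a2 the difference was 4.42 and 4.39 there, and for Col2a1 to Col11a1 it was 4.72 and 4.70.

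The size of the difference depended on the scaling for the dim probes and little for the bright ones. Col2a1 lay between 4.96 and 5.44 under the 18 alternative settings (17 for Col9a3), Col9a1 between 2.52 and 2.97, and Col11a1 between 0.63 and 0.84. Col9a2 lay between 5.37 and 6.88, with the lowest value in the authors' deposited table. Col9a3 lay between 0.95 and 4.64, and Col11a2 between 0.93 and 2.40.

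**Figure D3:**
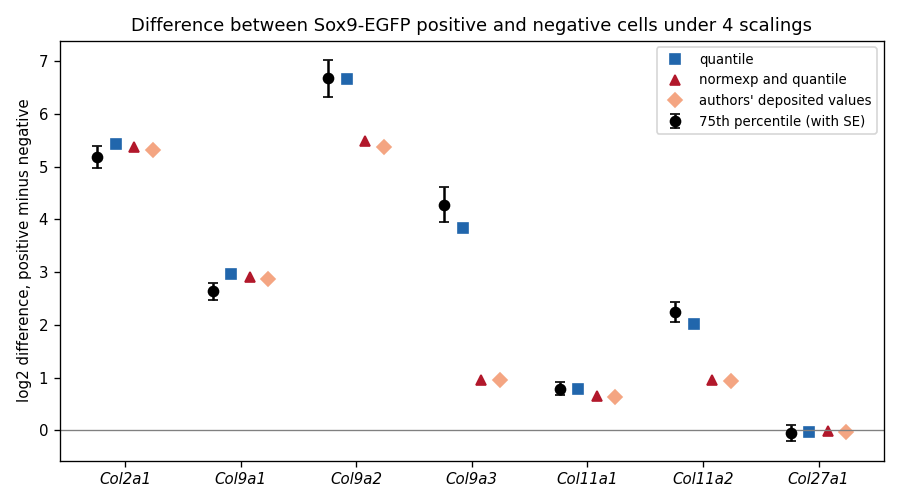
Log2 difference between positive and negative cells (y axis) of each gene's tested probe (x axis) under 4 scalings; bars on the black circles are the SE of the limma fit (n = 3 per group). Col2a1 lies between 5.19 and 5.44 and Col9a1 between 2.63 and 2.97, while Col9a3 falls from 4.28 to 0.95 and Col11a2 from 2.25 to 0.93.

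RefSeq promoters (GRCm38.p6) were matched by symbol for 5 of the 7 genes, with 6 entries. The 250 bases before the start site are shown for Col9a2, which had the largest difference, for both starts of Col9a1 and for Col11a2. The letters searched, on both strands, were SOX heptamers, the GC box GGGCGG bound by SP factors, TATAAA, and the E-box CAGGTG bound by Snail and ZEB factors. The heptamers were AACAAAG, also AACAATG, then ATCAAAG with its variant ATCAATG, next TACAAAG together with TACAATG, lastly TTCAAAG followed by TTCAATG. Capitals mark each match.
Col9a2, chr4:121039316-121039565, plus strand: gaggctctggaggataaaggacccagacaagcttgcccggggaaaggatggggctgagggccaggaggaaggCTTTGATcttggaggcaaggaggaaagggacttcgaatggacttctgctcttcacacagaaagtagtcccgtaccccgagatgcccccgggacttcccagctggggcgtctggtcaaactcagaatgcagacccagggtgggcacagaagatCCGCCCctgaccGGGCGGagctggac
Col9a1, upstream start, chr1:24177360-24177609, plus strand: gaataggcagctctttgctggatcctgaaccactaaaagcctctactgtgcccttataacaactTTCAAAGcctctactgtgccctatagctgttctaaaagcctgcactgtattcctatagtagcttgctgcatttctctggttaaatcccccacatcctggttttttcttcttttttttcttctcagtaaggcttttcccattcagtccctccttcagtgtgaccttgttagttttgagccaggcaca
Col9a1, downstream start, chr1:24194953-24195202, plus strand: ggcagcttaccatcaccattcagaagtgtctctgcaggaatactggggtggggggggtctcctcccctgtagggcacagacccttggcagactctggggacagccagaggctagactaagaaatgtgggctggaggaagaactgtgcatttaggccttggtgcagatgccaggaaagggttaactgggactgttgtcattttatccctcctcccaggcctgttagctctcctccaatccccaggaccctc
Col11a2, chr17:34038888-34039137, plus strand: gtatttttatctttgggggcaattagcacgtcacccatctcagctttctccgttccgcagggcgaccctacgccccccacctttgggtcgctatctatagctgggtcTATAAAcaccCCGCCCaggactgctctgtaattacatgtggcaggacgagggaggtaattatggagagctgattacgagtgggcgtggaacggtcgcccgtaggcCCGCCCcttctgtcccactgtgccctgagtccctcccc
A SOX heptamer occurred once in Col9a2, on the minus strand at positions −178 to −172 from the start site, and once in the upstream Col9a1 window, at −186 to −180. The Col9a2 match, read on the plus strand, shares its letters with the CTTTGA core of TCF and LEF factors. The other 4 windows held no SOX heptamer, and 21.8% of 32851 promoter windows of the same length held at least 1. GC boxes occurred in Col9a2, Col11a2, Col11a1 (2 each) and Col27a1 (1), and in 32.7% of all windows. TATAAA occurred in Col11a2, at −143 to −138, and in 12.4% of all windows, and CAGGTG in none of the 6 windows and in 17.2% of all.

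Other genes of the pathway were read from lists written from general knowledge, with the brightest tested probe standing for each gene. Among 13197 named genes 8.52% were called higher and 18.2% lower in the positive cells (26.7% in either direction), with a median log2 difference of −0.18. Of 25 measured SOX factors and regulators of cartilage collagen genes, 10 were higher and 1 lower, with a median of 0.59. Sox6, a SOX9 partner, was at least 12.3-fold higher on the processed signal, but its log2 difference was 1.61 under normexp plus quantile scaling and 1.59 in the authors' deposited table. Sox5, the other partner, had 0.32 ± 0.28 and was not called. The forkhead factor genes Foxc1 and Foxc2 had 7.47 ± 0.40 and 3.47 ± 0.21, and Foxc1 was above background on 2 of the 3 negative arrays. Under normexp plus quantile scaling these were 5.49 and 2.84. Tfap2a, which encodes the transcription factor AP-2 alpha, was the lower member with −2.66 ± 0.15 (SE, n = 3 per group).

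Of 9 measured other fibril-forming and fibril-associated collagens, 4 were higher and 2 lower, and their median was −0.06. None of these 6 calls was firm: 0 were called without negative replicate 3, 1 without negative replicate 1, 2 without positive replicate 3, 3 without positive replicate 2 and 0 with no filter on background, while 1 was called with the replicate block (limma). Col12a1, a fibril-associated collagen of dense connective tissue, was at least 5.74-fold higher on the processed signal (adjusted p = 0.0133, limma). Its log2 difference was only 1.06 under normexp plus quantile scaling and 1.07 in the authors' deposited table. Its call was lost under normexp plus quantile scaling (adjusted p = 0.0598, limma), in the same fit on the authors' deposited values (0.0510) and without negative replicate 3 (0.0594). Col16a1 had 1.10 ± 0.20, Col1a1, the main collagen chain of bone, 1.06 ± 0.21 and Col22a1 0.88 ± 0.20, and all 3 calls were lost without negative replicate 1 or without negative replicate 3. The Col16a1 and Col22a1 calls were also lost without positive replicate 3, and that of Col22a1 without positive replicate 2, with a largest adjusted p of 0.0651, 0.0732 and 0.0901 for Col16a1, Col1a1 and Col22a1 (limma). The 2 lower genes were Col3a1 (−2.13 ± 0.51) and Col24a1 (−0.59 ± 0.14), and both calls were lost without any 1 array other than positive replicate 1. With slide as a block that of Col24a1 was lost too (adjusted p = 0.0507, limma). Col5a1 and Col5a2, the collagen V chains closest to Col11a1 in role, had −0.08 ± 0.14 and −0.32 ± 0.13 and were not called, and the sign of Col5a1 was the other one under quantile scaling (0.13). Col3a1, Col24a1, Col5a1 and Col5a2 were named after their values were seen.

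Of 15 measured cartilage matrix partners, 6 were higher and 2 lower, with a median of 0.65. With probes above background on all 6 arrays, 4 genes of this list were called instead of 8. Cnmd, the cartilage glycoprotein chondromodulin, was at least 4.01-fold higher, Matn4, a matrilin, was 8.01-fold higher and Dcn, the proteoglycan decorin that binds collagen fibrils, 3.59-fold higher. Hapln1, the link protein of aggrecan, was at least 1.68-fold lower. These sizes hold for the processed signal: under normexp plus quantile scaling the log2 differences were 0.88 for Cnmd, 1.99 for Matn4, 1.52 for Dcn and −0.50 for Hapln1, and all 4 were called. Cnmd passed the filter on background through the positive arrays alone and Hapln1 through the negative arrays alone, so their entry depended on a high level there. Matn1, Epyc, Snorc, Col10a1 and Cilp, which mark later cartilage, were not above background on any array.

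Of 30 measured genes that fold, process and export collagen, 5 were higher and 2 lower, with a median of 0.07. This is 23.3% called, near the 26.7% of all named genes, and leaving out any 1 array other than positive replicate 1 gave 3 or 4 calls. Creb3l2, a transcription factor of the secretory pathway in chondrocytes, rose 4.11-fold, and the lysyl oxidase-like crosslinking enzymes Loxl3 and Loxl1 rose 3.53-fold and 3.41-fold, and Loxl3 had a log2 difference of 1.21 instead of 1.82 under normexp plus quantile scaling. P3h3, a prolyl 3-hydroxylase, had 0.83 ± 0.17, a call that was lost without any 1 array other than positive replicate 1. Of 6 measured collagen receptors, Ddr1, a receptor tyrosine kinase for fibrillar collagen, was 3.62-fold higher, and its log2 difference was 1.26 in the authors' deposited table instead of 1.85. The integrin chain Itga1 had −0.75 ± 0.16 and was called lower, a call likewise lost without any 1 array other than positive replicate 1.

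**Figure D4:**
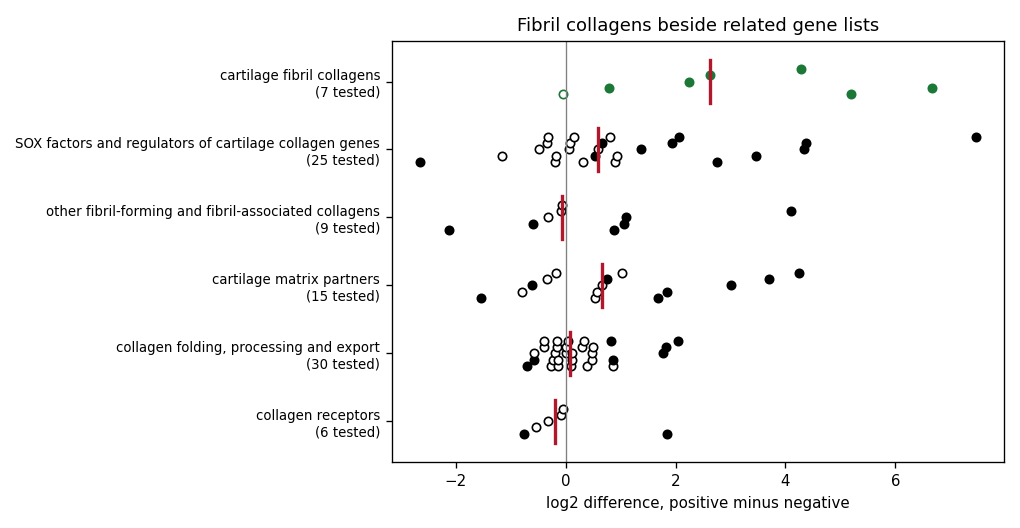
Log2 difference between positive and negative cells (x axis) of each tested gene in the fibril collagens (green) and 5 related lists; filled points are called at an adjusted p under 0.05 (limma), open points are not, and red bars are medians. The fibril collagens have a median of 2.63 and the other lists medians of −0.20 to 0.65.

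The genes whose pattern over the 6 arrays was most like that of Col2a1 were found by the root mean square distance between log2 profiles, each centred on its own mean, among 11758 other named genes above background on all 6 arrays. The 5 nearest were Cxcl12 (0.42), Sox9 (0.44), Rflna (0.50), Fibin (0.51) and Enpp2 (0.51). These distances are log2 units over 6 arrays and are given as a description.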

How the data were processed

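Per the file headers, the authors produced the spot intensity values with Feature Extraction 10.7.3.1, which subtracts background but scales no array to another. The authors' deposited log2 values share one distribution (median 6.41 in every column), and how they were scaled is not stated. Each processed intensity was put on a log2 scale against its array's 75th percentile over 59305 non-control spots. Spots of a probe were averaged without outlier spots; probes well above background on the 3 arrays of either group were kept (26473, with 17 left out for outliers). The comparison used limma 3.58.1 (R 4.3.3) across these probes, with Benjamini-Hochberg adjustment and a threshold of 0.05. The pipeline was tested on simulated data. Genes were named through RefSeq accession or symbol. The genes set to be named were all members, Sox9, Sox5, Sox6, up to 4 genes of each list with the smallest adjusted p, and the 5 genes nearest to Col2a1. Of these, Itga11, Itgb1, Kdr, Pecam1, Hbb-bh1 and Hba-x, none of them called, were left out of the text. Deviations from the group means correlated at −0.27, −0.46 and 0.28 for samples of replicate numbers 1, 2 and 3, of which 1 of 3 exceeded 0.1, and at 0.56, 0.41 and 0.24 for arrays of slides 1, 2 and 3. The members and lists were chosen with earlier results of these data known. Alternatives were other scalings, filters, moderation, array weights, blocks and leaving out each array. The number of arrays limits the precision.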

Additional observations from a re-analysis of the deposited data

Results flagged for a closer look

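The upstream Col9a1 probe entered no test, but on positive replicate 3 it was well above background at −4.34 log2 units over the 75th percentile. This was above its 3 negative arrays, of which the highest read −4.49 and none was well above background. The other 2 positive arrays read −4.76 and −5.14.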

How the results depend on the processing

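The 6 member calls held under 15 of the 18 alternative settings for genes. The number called was 5 with no filter on background, where Col11a1 was lost, 5 with the probes above background on all 6 arrays, where Col9a3 was not tested, and 5 with the replicate block, where Col11a1 had an adjusted p of 0.0698 (limma). The labels do not say whether equal replicate numbers pair samples, and deviations of samples with the same number correlated at −0.27, −0.46 and 0.28. Whether the replicate block suits these samples therefore cannot be told, and the lost Col11a1 call stands as a limit. Leaving out each array gave 6 member calls every time. The difference between groups in the log2 ratio of Col9a1 to Col9a3 changed sign with the scaling. It was 1.96 under normexp plus quantile scaling and 1.92 in the authors' deposited table, and the cause was not tested. Leaving out single arrays gave differences between groups of −4.23 to −3.68 in the log2 ratio of Col9a1 to Col9a2. For the log2 ratio of Col2a1 to Col11a1 they were 4.24 to 4.54.

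Of all probes, 5731 were called, and 3803 after quantile normalization, 9598 with array quality weights, 1350 with no filter, 1370 with the replicate block and 2027 to 6449 without single arrays. Of named genes 3522 were called, and 5602, 787, 858 and 1309 to 3833 with weights, no filter, the replicate block and single arrays left out. Of the entries in the lists 46 were called, and 26 with no filter, 28 with the replicate block and 29 to 48 without single arrays. A gene counted in each list that holds it, as Sox9 and Cnmd did. Signal over background limits Col9a3 and Col11a2, whose mean signal reached at most 6.19 and 7.84 times the local background.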
